A study of Homo sapiens with 12 samples.

Results

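The genes described here encode C/D box small nucleolar RNAs (snoRNAs), taken as every gene of the array whose probe set carries one symbol only and that symbol starts with SNORD. There were 115 such genes, with 1 probe set each, among 18417 genes tested. Of these, 46 belong to the imprinted families SNORD113 (2 genes), SNORD114 (4), SNORD115 (20) and SNORD116 (20), and 69 are other C/D box genes. RefSeq lists 112 of the 115 as snoRNA and 3 as pseudogenes. A further 49 probe sets carry a SNORD symbol together with other symbols and were kept out of the counts.

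C/D box snoRNAs are short nucleolar RNAs named for a pair of conserved sequence boxes, which are bound by NOP58, NOP56, SNU13 and the methyltransferase fibrillarin. Most members base-pair with ribosomal RNA (rRNA) and guide the methylation of a ribose there, while a few take part in the cleavage and folding of the rRNA precursor. In human cells most are cut out of the introns of host transcripts, among them ribosomal protein genes and the noncoding GAS5 and SNHG genes, and are then matured by assembly factors and exonucleases. The imprinted families are arrays of near-identical copies. SNORD113 and SNORD114 lie at the DLK1 to DIO3 locus and SNORD115 and SNORD116 at the Prader-Willi locus, and the last 2 families are best known from neurons.

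RNA was measured on Affymetrix Human Gene 1.0 ST arrays in cells labelled 1833, a bone-metastatic derivative of MDA-MB-231, an established human line of breast cancer. The shHMGA2 group (3 arrays) carried an shRNA against the chromatin protein HMGA2, delivered by a lentivirus with puromycin selection. The Tet1 group (2 independent arrays) and the HOXA9 group (2 independent arrays) carried an inducible construct for the DNA demethylation enzyme TET1 or for the homeobox factor HOXA9. Both were selected with puromycin and with G418 and grown in serum approved for tetracycline systems, and their source names give the subline as 1834. The control group (3 arrays) is described only as 1833 cells, so vector, selection and serum are not stated for it. Nothing in the labels says whether a line came from 1 clone. The series asks which genes depend on these 3 proteins. The replicates are labelled biological, without a statement of what was kept separate, so p-values measure the spread between these arrays.

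Values are log2 expression as deposited, so a difference of 1 is a change of 2-fold. Calls are from a limma fit of the 4 groups, with Benjamini-Hochberg adjustment across the 18417 genes and a threshold of 0.05. The table has no detection calls, and values below 6.26, the 30th percentile of all probe set means, are not known to lie above background. In bulk RNA, a change in the RNA per cell and a change in which cells were sampled cannot be told apart.

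The arrays fell into a Tet1 and HOXA9 set and a shHMGA2 and control set. Arrays of different sets correlated at 0.945 to 0.966, those within the first set at 0.993 to 0.997 and those within the second at 0.986 to 0.998. For Tet1 or HOXA9 against control, the effects of array set, subline label, selection and construct cannot be told apart. TET1 averaged 7.07 ± 0.13 in the arrays labelled Tet1 and 7.30 ± 0.14 in HOXA9 arrays (SD, n = 2 each), so the label was not borne out against HOXA9. The same gene averaged 8.97 ± 0.29 in shHMGA2 and 6.56 ± 0.11 in control (SD, n = 3 each). The only probe set of HMGA2 also names ELAC2 and averaged 8.81 ± 0.29 in shHMGA2 against 9.56 ± 0.09 in control (SD, n = 3 each). The HOXA9 transcript was not analysed here, for want of a probe set of its own. Of the markers of this mesenchymal breast line, SPARC averaged 5.91 in shHMGA2 and 6.04 in control, below the 30th percentile, while VIM, CAV1, CD44, AXL and MSN averaged 11.90 or more in every group. Of the 5 markers that should be absent, ERBB2 (8.91 in shHMGA2, 8.60 in Tet1, 8.64 in HOXA9 and 8.92 in control) and GATA3 (7.79, 7.90, 7.97 and 7.83) lay above that percentile in every group. ESR1 lay above it at 6.95 in Tet1 and 6.96 in HOXA9, and below it at 5.95 in shHMGA2 and 6.05 in control.

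The host genes of the members below differ in sequence at their annotated starts. Genes of ribosomal proteins and translation factors typically start within a run of pyrimidines (the terminal oligopyrimidine start). For 9 hosts of members named in the results, 30 bases around the start annotated by RefSeq (15 before it and 15 from it on, GRCh38.p14, on the transcribed strand) are printed here, because the intron-encoded members of a host share that start. Capitals mark runs of at least 5 C or T. TNPO2 has 2 annotated starts. Windows of 5 of the 9 hosts hold such a run, as do 17409 of all 35116 windows (49.6%). The marked runs of NCL do not include its annotated start, and the starts used in these cells were not measured.
NCL, chr2:231464470-231464499, minus strand: tcagTCTTTCgcctcagtctcgagCTCTCg
RPL13A, chr19:49487593-49487622, plus strand: cgacaaaaCCTCCTCCTTTTCCaagcggct
RPS3, chr11:75399503-75399532, plus strand: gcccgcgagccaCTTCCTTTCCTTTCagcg
RPL7A, chr9:133348203-133348232, plus strand: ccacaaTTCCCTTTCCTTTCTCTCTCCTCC
SNHG1, chr11:62855871-62855900, minus strand: ccggggagattcgTTCTCaTTTTTCTactg
GAS5, chr1:173869031-173869060, minus strand: tgccatcatgaattcagatgtgtttatttt
TNPO2, chr19:12723918-12723947, minus strand: ctcagcccaggtttcagtccagcggaactg
TNPO2, chr19:12722245-12722274, minus strand: tggggcctcggagccaggccatgtcggggc
WDR43, chr2:28894652-28894681, plus strand: cgcctgcgcacggacgaacacgtggctgca
CHD8, chr14:21437261-21437290, minus strand: gcgggcaggagcatcaggttaggttgcgca

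Over all 10 arrays the 2 kinds of member lay at different levels. Every one of the 46 imprinted genes was below 6.26 in every array, with values between 4.03 and 5.99. Their median over genes was 4.65 to 4.69 in the shHMGA2 arrays, 4.51 and 4.58 in the Tet1 arrays, 4.50 and 4.54 in the HOXA9 arrays, and 4.68 to 4.70 in the control arrays. The 69 other genes spanned 4.14 to 13.63, with array medians of 8.41 to 8.78, and 8 of them were below 6.26 in every array. A difference among imprinted members is therefore one between values at the low end of the scale, and no level could be assigned to any of them.

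In shHMGA2 cells, 12 of the 69 other C/D box genes were higher than in control and none was lower, against 13.6% of all genes called higher and 12.6% called lower (26.2% in all). SNORD36B, SNORD61, SNORD15A, SNORD1A, SNORD58A, SNORD15B, SNORD75 and SNORD43 had the largest rises, and SNORD81, SNORD38A, SNORD74 and SNORD102 the other 4. Their differences ran from 0.22 to 0.79 on the log2 scale, so none reached 2-fold, as 1.12% of all genes did upward and 0.353% downward. The median difference of the 69 genes was 0.10, beside -0.03 for all genes, and 51 of the 69 differences were positive. None of the 46 imprinted genes was higher and 1 was lower, with a median of -0.04.

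SNORD36B, a guide for small-subunit rRNA from an intron of RPL7A, measured 9.57, 9.58 and 9.63 in the shHMGA2 arrays, against 8.72, 8.93 and 8.77 in the control arrays. Every shHMGA2 array was above every control array, a separation in one direction or the other that 40.5% of all genes showed. The difference was 0.79 ± 0.11 (SE), a fold of 1.73, with an adjusted p of 0.00023 (limma). The probe set that names RPL7A alone was 0.34 higher (adjusted p = 0.00093, limma). It may read a processed copy of this gene, so its value as a host is uncertain. Probe sets that name RPL7A with SNORD36A and SNORD36C, or with SNORD24, were at 0.48 and 0.54 (adjusted p = 0.002 and 0.083 over all probe sets, limma).

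SNORD15A and SNORD15B, guides for large-subunit rRNA from introns of RPS3, rose together. SNORD15A measured 8.75, 8.91 and 8.98 in shHMGA2 arrays and 8.24, 8.23 and 8.18 in control arrays, and SNORD15B 9.04, 9.19 and 9.27 in shHMGA2 arrays and 8.53, 8.66 and 8.74 in control arrays. For neither gene did the groups overlap. The differences were 0.66 ± 0.07 and 0.53 ± 0.08 (SE), with adjusted p of 2.7e-05 and 0.00065 (limma). RPS3 itself was at a difference of 0.15 and was not called (adjusted p = 0.12).

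SNORD1A, a guide for large-subunit rRNA hosted by SNHG16, measured 7.43, 7.59 and 7.72 in shHMGA2 arrays and 6.77, 6.85 and 7.20 in control arrays. The control arrays were the lower 3 of the 6, with the third control array closest to shHMGA2. Its difference was 0.64 ± 0.13 (SE), with an adjusted p of 0.0043 (limma). SNORD61, a guide for small-subunit rRNA hosted by RBMX, measured 6.57, 6.14 and 6.10 in shHMGA2 arrays and 5.54, 5.58 and 5.61 in control arrays. The first shHMGA2 array stood above the other 2, and 5 of the 6 values lay below 6.26, so the difference of 0.70 ± 0.12 (SE; adjusted p = 0.0015, limma) is one between dim values. SNORD43, from an intron of RPL3 and a guide for small-subunit rRNA, measured 8.96, 9.07 and 9.04 in shHMGA2 arrays and 8.52, 8.66 and 8.63 in control arrays. These groups did not overlap either, and the difference was 0.42 ± 0.06 (SE; adjusted p = 0.00033, limma).

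**Figure D1:**
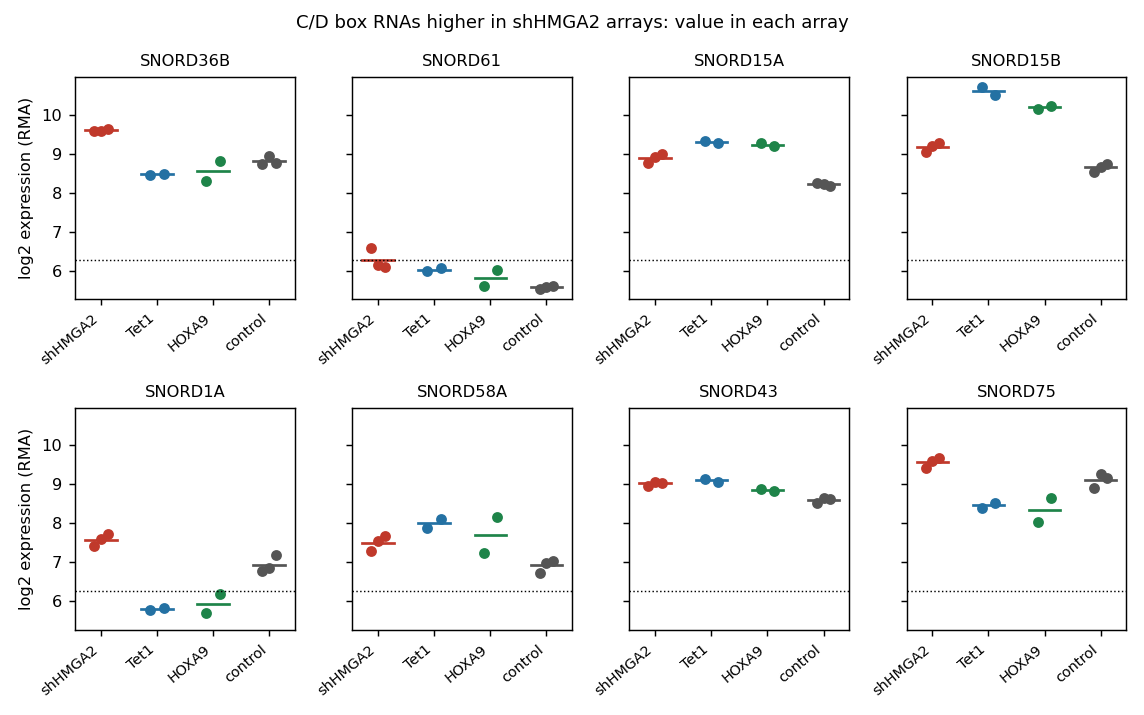
Log2 expression (vertical axis) of 8 C/D box RNAs with the largest rises in shHMGA2 cells, 1 point per array and a line at each group's mean, for the shHMGA2, Tet1, HOXA9 and control groups. The dotted line is the 30th percentile of all probe set means, 6.26. In each panel the 3 shHMGA2 points lie above the 3 control points, while the place of Tet1 and HOXA9 differs between genes: above control for SNORD15B and below it for SNORD1A.

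The noncoding host GAS5 carries 7 of the measured members. All 7 differences were positive in shHMGA2 against control, between 0.18 and 0.45, and 3 passed the test: SNORD75 (0.45, adjusted p = 0.032), SNORD81 (0.41, adjusted p = 0.048) and SNORD74 (0.26, adjusted p = 0.040, all limma). The GAS5 transcript has no probe set of its own name alone and was not analysed here. SNORD58A, hosted by RPL17, was called with a wider error (0.59 ± 0.19 SE, adjusted p = 0.041), and RPL17 itself was 0.19 higher (adjusted p = 0.046, limma).

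Among 30 members whose host was measured on its own (20 hosts), 3 were called higher together with their host in shHMGA2, 2 were called without it, and 5 had a called host only. Across these 30 pairs the differences of snoRNA and host had a Pearson r of 0.59 and a Spearman rho of 0.59, a description over pairs that share arrays and hosts. The pairs include RPL7A, RPL23A and RPL5, whose probe sets may read processed copies of these genes. The largest called host was EEF2 at 0.42, while its SNORD37 stood at 0.03. SNORD37 lay below 6.26 in every array, so its change could not be judged.

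The only imprinted call was SNORD116-15, at 5.08, 5.14 and 5.24 in shHMGA2 arrays and 5.31, 5.34 and 5.74 in control arrays. The groups did not overlap, all 6 values lay below 6.26, and the third control array stood above the other 5. Its difference was -0.31 ± 0.10 (SE; adjusted p = 0.040, limma), and without that control array it was -0.17 (adjusted p = 0.11, limma).

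The count of members higher in shHMGA2 moved with single arrays. It was 7 without control replicate 1 and 7 without shHMGA2 replicate 2, against 12 with all arrays. In every one of the 10 fits that left out an array, 7 members stayed called: SNORD36B, SNORD61, SNORD15A, SNORD15B, SNORD1A, SNORD43 and SNORD102. Of these, SNORD102 lay below 6.26 in every array. SNORD58A and SNORD81 lost their call when all arrays were quantile-normalized together and when array medians were made equal, SNORD75 under quantile normalization alone and SNORD74 under equal medians alone.

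Other small RNAs of the nucleus were read in the same comparison, in which 13.6% of all genes were higher and 12.6% lower. Of the H/ACA box genes (SNORA, guides for pseudouridine), 18 of 61 were higher and 1 lower in shHMGA2 than in control, with a median of 0.15. Of the Cajal body RNAs (SCARNA, guides for spliceosomal RNA), 7 of 16 were higher and none lower, with a median of 0.20. Of microRNA genes, 6 of 189 were higher and 15 lower. The proteins that bind, assemble or mature C/D box RNAs were measured for 15 of 18 listed genes: 6 were higher and 1 lower. The 6 were DBR1, the lariat debranching enzyme (0.42), the helicase RUVBL1 (0.32), the core protein NOP58 (0.25), the cap hypermethylase TGS1 (0.23), and the assembly factors NUFIP1 (0.21) and RPAP3 (0.19), while PIH1D1, of the same assembly complex, was lower (-0.20). Of the 15, 5 were higher and 1 lower after quantile normalization of all arrays, and 3 and 1 with equal array medians.

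Genes foreign to the breast line moved with this comparison. Of 9 markers of an embryonic kidney line, 5 were higher in shHMGA2, where 13.6% of all genes were: HOXD10 (4.47), NEFM (1.65), NEFL (1.17), CITED1 (0.54) and WT1 (0.25). The summed linear level of the list was 2640 to 3430 in shHMGA2 arrays and 996 to 1080 in control arrays, while its defining kidney factors PAX2, LHX1, CDH6 and TFAP2B were not called, at differences of -0.09, 0.10, -0.12 and -0.11. CDKN2A and MTAP, from a stretch deleted in MDA-MB-231, rose by 2.48 and 1.72. Of the embryonic list, LIN28B (3.14) and SOX2 (0.63) were higher and LIN28A was at -0.03, and of the 5 neuronal markers SYT1 alone was called (1.05). Their part in the snoRNA differences was not tested.

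Between the arrays labelled Tet1 and HOXA9, none of the 115 members was called by limma, against 0.434% of all genes. At an unadjusted p under 0.05 there were 15 members, 12 of the 69 others and 3 of the 46 imprinted, where 9.16% of all genes passed that threshold. Differences ran from -0.51 (SNORD56B) to 0.51 (SNORD35A). SNORD35A, a guide for large-subunit rRNA hosted by RPL13A, measured 11.82 and 11.74 in Tet1 arrays and 10.73 and 11.80 in HOXA9 arrays. The groups overlapped, since the second HOXA9 array lay with the Tet1 arrays. SNORD56B measured 6.49 and 6.74 in Tet1 arrays and 6.90 and 7.36 in HOXA9 arrays, without overlap, as in 41.3% of all genes (-0.51 ± 0.13 SE, adjusted p = 0.15, limma).

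The 2 HOXA9 arrays differed from each other among the other C/D box genes. Replicate 1 was below replicate 2 in 57 of the 69 (82.6%), with a median of -0.31 and a range of -1.12 to 0.32. Over all genes the share was 52.3%, and among the imprinted members 25 of 46. The Tet1 arrays did not show this, with 33 of the 69 lower in replicate 1 and a median of 0.03. Without HOXA9 replicate 1, 2 members were called lower and none higher in Tet1 than in HOXA9. Without HOXA9 replicate 2, 1 was called higher and none lower. Either fit leaves 1 HOXA9 array, which is assumed to vary like the arrays of the other groups.

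Against control, the arrays labelled Tet1 and those labelled HOXA9 showed the widest spread among the other C/D box genes. In Tet1 arrays 38 of the 69 were higher and 19 lower, where 53.9% of all genes were called higher and 23.2% lower (77.1% in all). As deposited, 24 of the 69 were at least 2-fold higher and 6 at least 2-fold lower, beside 6.44% and 2.30% of all genes. In HOXA9 arrays 36 were higher and 17 lower, where 54.0% of all genes were higher and 21.6% lower (75.7% in all), and 21 were at least 2-fold higher and 2 at least 2-fold lower (5.60% and 1.86% of all genes). The median difference was 0.43 in Tet1 and 0.37 in HOXA9, beside 0.25 and 0.24 for all genes. The 2-fold counts were not repeated under other scalings and can shift with them. With equal array medians SNORD53 moved from 1.42 to 0.95 in Tet1, and SNORD12C from -0.92 to -1.38. These comparisons share their control arrays and both cross the array sets, so the counts are given side by side only.

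Markers of other cells were read in these comparisons as well. Of the 9 kidney line markers 6 were higher and 1 lower in Tet1, and 5 higher and 2 lower in HOXA9. Of all genes 53.9% were higher and 23.2% lower in Tet1, and 54.0% and 21.6% in HOXA9. In either direction 77.8% of this list was called in each comparison, near the 77.1% and 75.7% of all genes. The summed linear levels of the list were 1320 to 1360 in Tet1 arrays and 1230 to 1350 in HOXA9 arrays, against 996 to 1080 in control arrays. LHX1 had the largest difference of that list, 1.26 in Tet1 and 1.20 in HOXA9. Of the 5 neuronal markers all 5 were higher in Tet1 and 4 in HOXA9, led by SYT1 (1.82 and 1.85), with sums of 1230 to 1250 in Tet1 arrays and 1180 to 1300 in HOXA9 arrays, against 498 to 501 in control arrays. Of the 3 embryonic markers LIN28A and SOX2 were higher in both, and LIN28B was not called at -0.28 and -0.25. SPARC (2.21 and 1.90) and ESR1 (0.89 and 0.91) were higher too. After quantile normalization of all arrays 3 kidney line markers were higher and 3 lower in Tet1, and 3 of the 5 neuronal markers were higher and 1 lower. Their part in the snoRNA differences was not tested.

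The split of calls depended on how the arrays were scaled. Of all calls between Tet1 and control 69.9% were higher as deposited, 49.4% after one quantile normalization of all arrays and 29.9% with equal array medians. For HOXA9 and control the shares were 71.4%, 46.6% and 28.4%. The all-gene median moved from 0.25 as deposited to 0.00 and -0.22 in Tet1, and from 0.24 to -0.02 and -0.21 in HOXA9. Among the 69 other C/D box genes the counts in Tet1 were 31 higher and 24 lower after quantile normalization, and 28 and 29 with equal medians. In HOXA9 they were 28 and 25, and 25 and 31. In the next 4 paragraphs every SNORD gene named kept its direction under both scalings, except where other values are given.

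SNORD41, a guide for large-subunit rRNA, had the largest rise among the members. It measured 13.63 and 13.54 in Tet1 arrays and 13.07 and 13.60 in HOXA9 arrays, against 9.94, 10.07 and 9.89 in control arrays. No array of either group came near control, although 85.7% of all genes separated Tet1 from control arrays and 82.8% HOXA9 from control arrays, and the shHMGA2 arrays (9.86 to 10.00) overlapped control. The differences were 3.62 ± 0.12 (SE) in Tet1 and 3.37 ± 0.12 in HOXA9, folds of 12.3 and 10.3 (adjusted p = 1.4e-09 and 2.5e-09, limma). Its host TNPO2, a nuclear import receptor, was lower by the same fit, at -0.78 in Tet1 and -0.81 in HOXA9.

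SNORD105, a guide for small-subunit rRNA hosted by PPAN, measured 8.86 and 8.51 in Tet1 arrays and 8.41 and 8.69 in HOXA9 arrays, against 5.27, 5.34 and 5.26 in control arrays. SNORD82, a guide for small-subunit rRNA hosted by NCL, measured 8.87 and 9.03 in Tet1 arrays and 8.45 and 9.24 in HOXA9 arrays, against 5.60, 5.59 and 5.67 in control arrays. Both genes thus lay below the 30th percentile in control and well above it in the other set, so their folds (10.5 and 10.1 in Tet1, 9.57 and 9.36 in HOXA9) are those of the measured values and can understate the change. The Tet1 differences were 3.39 ± 0.11 and 3.33 ± 0.16 (SE; adjusted p = 7.8e-10 and 1.7e-08, limma). SNORD46, a guide for large-subunit rRNA, measured 11.69 and 11.55 in Tet1 arrays and 11.15 and 11.43 in HOXA9 arrays, against 8.85, 8.87 and 8.83 in control arrays. Its difference was 2.77 ± 0.08 (SE) in Tet1 and 2.44 ± 0.08 in HOXA9.

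The members with roles in rRNA processing did not move alike. SNORD13, known from human cells for guiding the acetylation of small-subunit rRNA, measured 13.43 and 13.19 in Tet1 arrays and 12.98 and 13.41 in HOXA9 arrays, against 10.49, 10.65 and 10.68 in control arrays. That is a difference of 2.70 ± 0.13 (SE) in Tet1 and 2.59 ± 0.13 in HOXA9. The pseudogene SNORD13P3 followed it at 2.65 and 2.51, and in all 10 arrays it lay 0.29 to 0.50 below SNORD13, so the 2 probe sets may read the same RNA. The other copies differed less: SNORD13P1 was at -0.18 in Tet1 and 0.03 in HOXA9, and SNORD13P2 at 0.30 and 0.50, with directions that changed with the scaling. Of the SNORD14 genes, known for early processing of small-subunit rRNA and hosted by HSPA8, SNORD14E was higher by 1.20 in Tet1 and 1.37 in HOXA9. SNORD14C, measured at 12.18 and 12.21 in Tet1 arrays, 12.14 and 12.31 in HOXA9 arrays and 11.73, 11.75 and 11.75 in control arrays, differed by 0.46 and 0.48, and by -0.01 and 0.03 with equal array medians. In shHMGA2 none of these 6 was called, with differences of -0.11 to 0.11.

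Falls were smaller than rises. SNORD52, a guide for large-subunit rRNA hosted by SNHG32, measured 7.84 and 7.92 in Tet1 arrays and 7.99 and 8.43 in HOXA9 arrays, against 9.69, 9.65 and 9.56 in control arrays. It was the lowest member in both comparisons, at -1.75 ± 0.12 (SE) in Tet1 and -1.42 ± 0.12 in HOXA9 (adjusted p = 1.4e-07 and 6.9e-07, limma). SNORD78, a guide for large-subunit rRNA hosted by GAS5, measured 8.73 and 8.89 in Tet1 arrays and 8.71 and 9.23 in HOXA9 arrays, against 9.97, 10.34 and 9.95 in control arrays, differences of -1.28 ± 0.15 and -1.12 ± 0.15 (SE). SNORD1A, one of the genes that rose in shHMGA2, measured 5.78 and 5.83 in Tet1 arrays and 5.70 and 6.19 in HOXA9 arrays, against 6.77, 6.85 and 7.20 in control arrays. It was 1.13 lower in Tet1 and 1.00 lower in HOXA9 on the log2 scale, into the range below 6.26. The other falls of the 8 largest in Tet1 were SNORD20 (-1.32), SNORD4A (-1.02), SNORD81 (-1.01), SNORD49A (-0.96) and SNORD30 (-0.94). In HOXA9, SNORD12C (-0.93) was among the 8 in place of SNORD49A (-0.53).

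**Figure D2:**
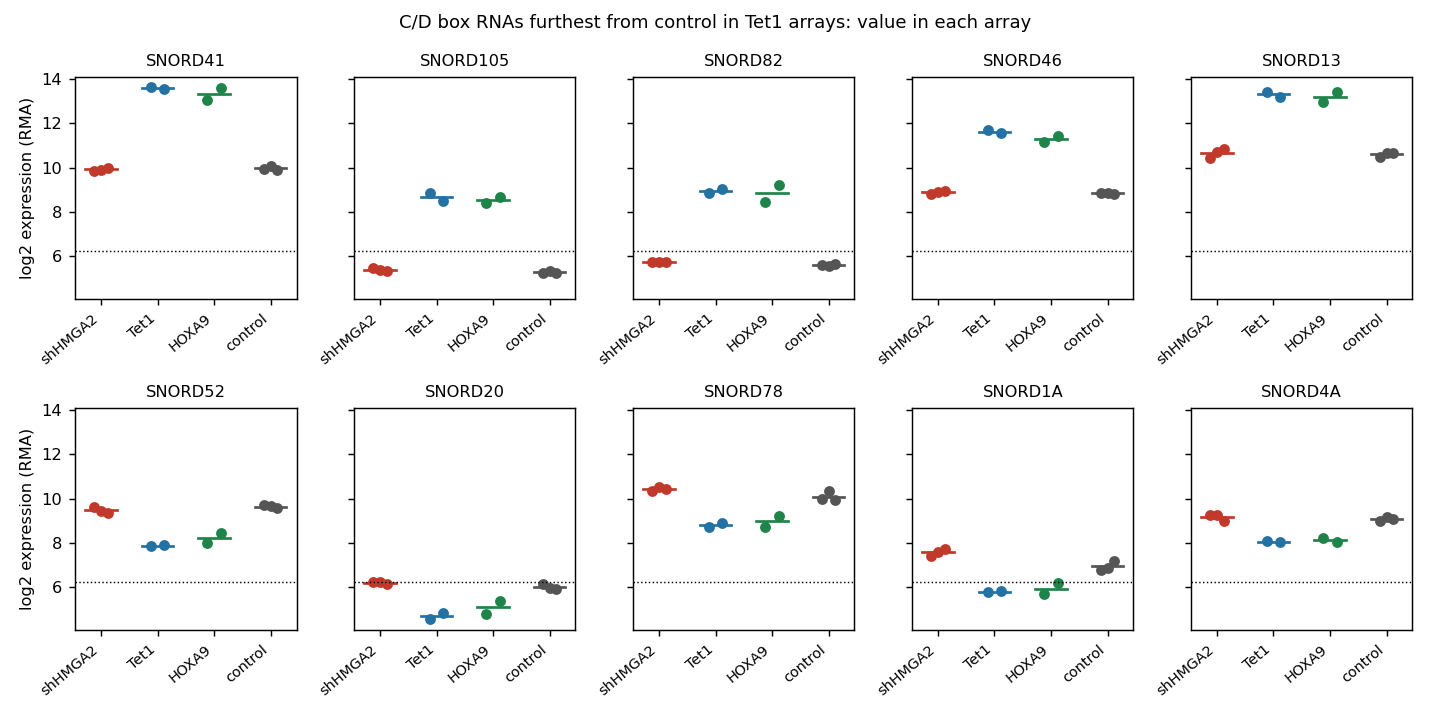
Log2 expression (vertical axis) of 10 C/D box RNAs far from control in the Tet1 arrays, 1 point per array and a line at each group's mean, for the shHMGA2, Tet1, HOXA9 and control groups. The dotted line is the 30th percentile, 6.26. The upper 5 genes rise in Tet1 and HOXA9, from below the dotted line in control for SNORD105 and SNORD82, and the lower 5 fall, while shHMGA2 lies near control except for SNORD1A.

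Members of some hosts moved in opposite directions, and those of others together. NCL, the gene of the nucleolar protein nucleolin whose start is printed above, hosts SNORD82 and SNORD20, guides for small-subunit rRNA. SNORD20 measured 4.55 and 4.83 in Tet1 arrays and 4.79 and 5.39 in HOXA9 arrays, against 6.14, 5.97 and 5.92 in control arrays. All of these lie below 6.26, and the groups did not overlap. Its difference was -1.32 ± 0.15 (SE) in Tet1, beside 3.33 for SNORD82 and -0.18 for NCL itself (adjusted p = 0.025, limma). In HOXA9 the values were -0.92 for SNORD20, 3.23 for SNORD82 and -0.10 for NCL.

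RACK1 hosts SNORD95 and SNORD96A, at 0.76 and -0.39 in Tet1 and both called there under all 3 scalings. At RPL13A all 4 members were higher in Tet1: SNORD35A (2.63), SNORD32A (2.61), SNORD33 (2.35) and SNORD34 (0.92), and in HOXA9 all 4 were higher by 0.49 to 2.28. The smallest of these, SNORD34 in HOXA9, was not called after quantile normalization (0.35), with equal medians (0.04), without HOXA9 replicate 2 (0.16) or without control replicate 1 (0.44). Of the 7 GAS5 members with a probe set of their own, 4 were lower in Tet1 (SNORD78, SNORD81, SNORD44 and SNORD75, -1.28 to -0.65), while SNORD77, SNORD79 and SNORD74 were not called, at -0.28, -0.22 and -0.01. In HOXA9 4 were lower and the 7 differences ran from -1.12 to -0.02. The probe set that names SNORD76 together with GAS5 went the other way, at 0.77 in Tet1 and 0.81 in HOXA9 (adjusted p = 9.4e-05 and 7.4e-05 over all probe sets, limma), and that of SNORD47 with GAS5 was at -0.89 and -0.72. RPS3 was 0.49 higher in Tet1 (0.21 after quantile normalization and 0.02 with equal medians), and its SNORD15A and SNORD15B were 1.08 and 1.95 higher.

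Several hosts moved against their members. CHD8, a chromatin remodeller, was lower (-0.56 in Tet1 and -0.41 in HOXA9), while its SNORD8 was 1.32 and 1.29 higher. WDR43, a ribosome biogenesis factor, was at -0.67 and -0.69, while its SNORD53 was 1.42 and 1.26 higher. RPL23A was higher by 0.71 in Tet1, while SNORD4A (-1.02) and SNORD42A (-0.48) were lower and SNORD4B was at -0.17. The probe sets of RPL23A, RPL7A and RPL5 may read processed copies of these genes, so their values as hosts are uncertain. The pair counts given next include these hosts. SNHG29 was 0.57 higher with SNORD49A at -0.96. ZFAS1 and SNORD12C were lower together, at -0.59 and -0.92.

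As deposited, over the 30 pairs with a measured host, 10 were called higher with their host in Tet1, 3 were called lower with it, 8 went in opposite directions, 3 had a called snoRNA only, 3 a called host only and 3 neither. In HOXA9 the counts were 10, 3, 7, 3, 5 and 2. The pairs were not counted again under the other scalings. With equal array medians SNORD14C, SNORD43, SNORD51 and SNORD83A, each higher with its host in Tet1 as deposited, were no longer called. Across pairs, snoRNA and host differences had a Pearson r of -0.20 and a Spearman rho of -0.14 in Tet1, as a description over pairs that share arrays and hosts. Length was related to the difference in the same way as a description only, over the 66 other members that RefSeq lists as snoRNA, without the 3 pseudogenes. Spearman's rho of length and difference was 0.41 in Tet1 and 0.41 in HOXA9, against -0.10 in shHMGA2.

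**Figure D3:**
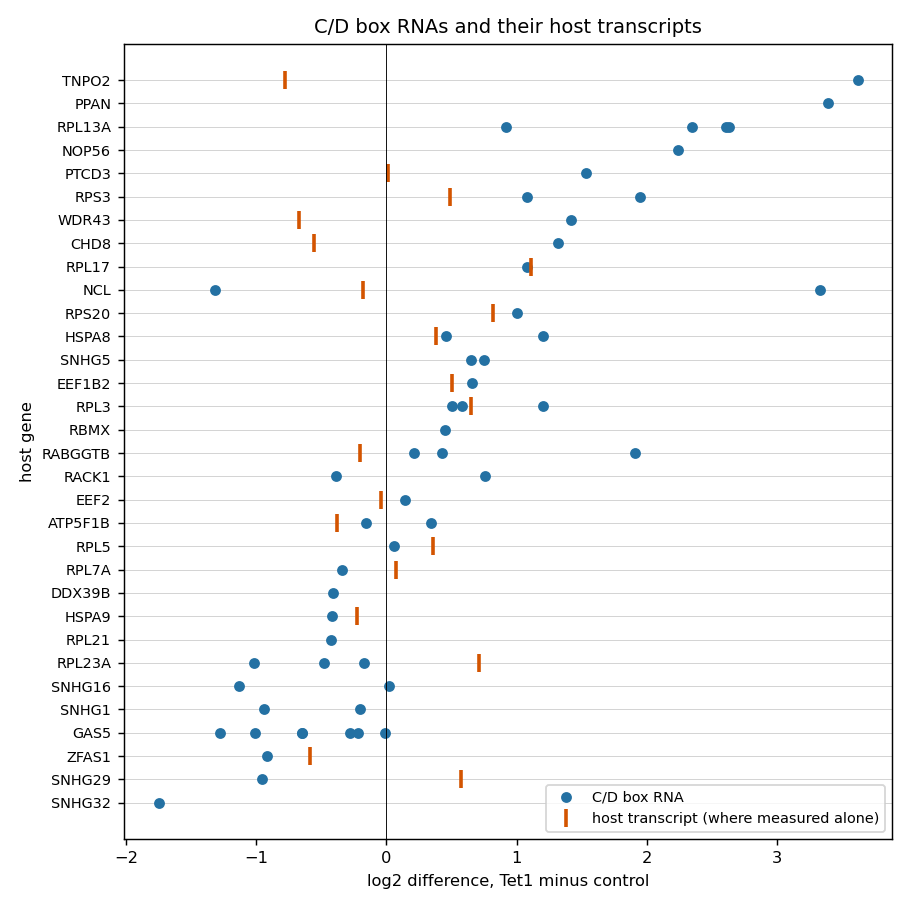
Log2 difference of Tet1 minus control (horizontal axis) for C/D box RNAs (blue points) grouped by host gene (vertical axis), with the host transcript's own difference as an orange tick where a probe set carries its symbol alone. Members of NCL run from -1.32 to 3.33, the 4 of RPL13A lie at 0.92 or above and the 7 of GAS5 with a probe set of their own at -0.01 or below.

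Among the imprinted genes called in Tet1 and HOXA9 most were lower, by small differences between dim values. In Tet1, 5 of the 46 were higher and 23 lower than in control, where 53.9% of all genes were higher and 23.2% lower, with a median of -0.15 and a range of -0.62 to 0.45, and none reached 2-fold. In HOXA9, 5 were higher and 24 lower, where 54.0% and 21.6% of all genes were, with a median of -0.16 and a range of -0.66 to 0.52. The split moved with the scaling: in Tet1 it was 5 higher and 17 lower after quantile normalization, and 0 and 42 with equal array medians. In HOXA9 it was 4 and 18, and 0 and 42. By family the Tet1 counts as deposited were 1 higher and none lower of 2 for SNORD113, none called of 4 for SNORD114, 3 higher and 10 lower of 20 for SNORD115 (median -0.14), and 1 higher and 13 lower of 20 for SNORD116 (median -0.24). The HOXA9 counts as deposited were 1 and none, none, 2 and 11 (median -0.16), and 2 and 13 (median -0.25).

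The lowest and highest member of each large family show the size of these differences. SNORD116-27 measured 4.58 and 4.72 in Tet1 arrays and 4.59 and 4.64 in HOXA9 arrays, against 5.41, 5.27 and 5.13 in control arrays. It did not overlap with control and was at -0.62 in Tet1 and -0.66 in HOXA9 (adjusted p = 0.00011 and 7.9e-05, limma), with shHMGA2 at 5.20 to 5.50. SNORD116-15, the highest of that family, measured 5.70 and 5.84 in Tet1 arrays and 5.99 and 5.99 in HOXA9 arrays, against 5.31, 5.34 and 5.74 in control arrays. Its Tet1 and control arrays overlapped, and its differences of 0.30 in Tet1 and 0.52 in HOXA9 were -0.05 and 0.13 after quantile normalization. In SNORD115 the extremes in Tet1 were SNORD115-14 at -0.42 and SNORD115-44 at 0.45, and SNORD115-44 was at -0.02 with equal array medians. SNORD113-3 was at 0.36 in Tet1 and 0.29 in HOXA9, and at -0.10 and -0.16 with equal medians, and SNORD113-4 was not called at 0.04 and 0.01. The 4 SNORD114 genes lay between -0.04 and 0.07 in Tet1. Copies of a family share most of their sequence, so that a probe set may read several of them.

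**Figure D4:**
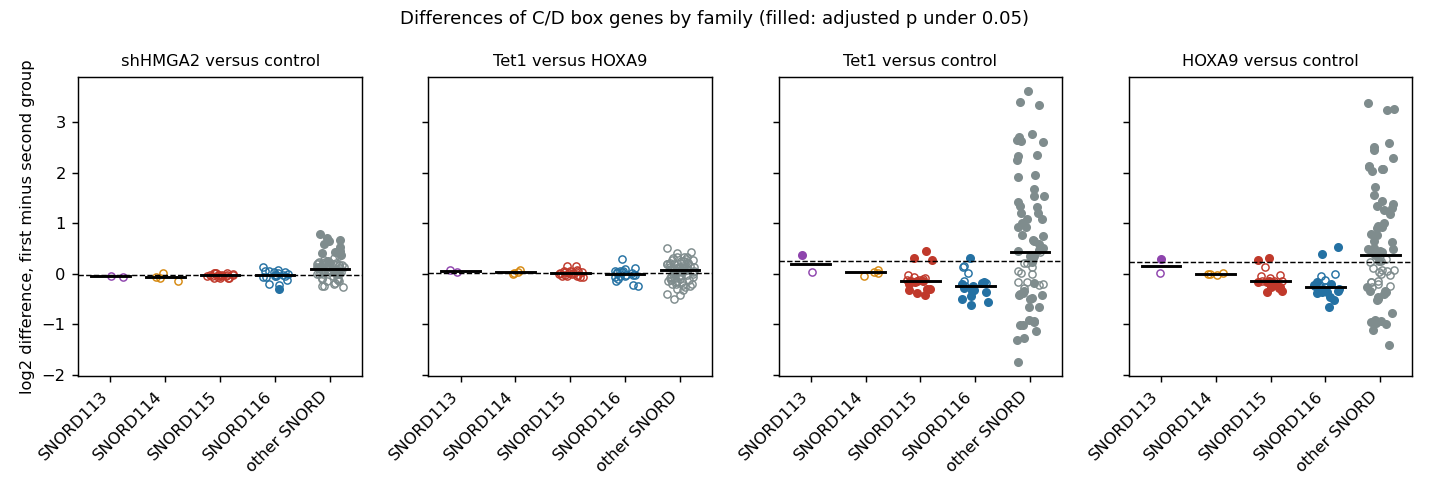
Log2 difference (vertical axis, first minus second group of each panel's title) of 115 C/D box genes by family, 1 point per gene, filled where the adjusted p is under 0.05, with a bar at the family's median and a dashed line at the median of all genes. The SNORD113 to SNORD116 points stay within -0.66 and 0.52 in all 4 comparisons, while the other genes run from -1.75 to 3.62 between Tet1 and control.

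The median of the imprinted genes was 0.57 below that of the others in Tet1 and 0.53 below it in HOXA9, by values that changed with the scaling: after quantile normalization of all arrays the gap was 0.19 and 0.05. Level moved with this contrast. Among the 36 genes with a mean of 4 to 4.5, of which 17 are imprinted members, the median difference between Tet1 and control was -0.17 and 66.7% were called lower. Among the 314 genes at 4.5 to 5 it was 0.01, with -0.14 for the 23 imprinted genes there. At 5 to 5.5 it was 0.26, between 5.5 and 6.26 it was 0.52, and above 8 it was -0.05. Of the others, the 12 with a mean below 6.26 had a median of -0.07 in Tet1 and the 57 above it a median of 0.58. The part of level in the family contrast was not tested beyond these values.

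**Figure D5:**
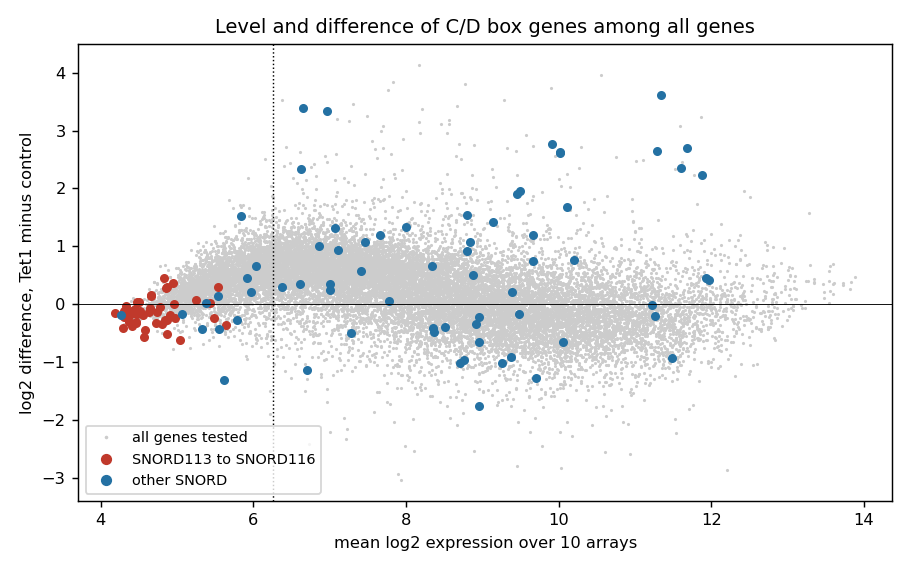
Log2 difference of Tet1 minus control (vertical axis) against the mean log2 expression over 10 arrays (horizontal axis) for all 18417 genes (grey), the SNORD113 to SNORD116 genes (red) and the other SNORD genes (blue). The dotted line is the 30th percentile, 6.26. All red points lie left of it and close to 0, where few grey points are. Most blue points lie right of it, above and below 0 and within the vertical range of the grey points.

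The protein-coding and long noncoding neighbours of the imprinted families were read where a probe set names them alone. At the Prader-Willi locus 5 of 9 listed genes were measured, and in Tet1 3 were higher (NPAP1 0.68, MKRN3 0.50, MAGEL2 0.45), the ubiquitin ligase UBE3A was lower (-0.64) and NDN was not called (-0.01), where 53.9% of all genes were higher. At the DLK1 to DIO3 locus 4 of 6 were measured and all 4 were higher in Tet1: the growth regulator DLK1 (1.16), RTL1 (0.72), the noncoding RNA MEG3 (0.56) and the thyroid hormone deiodinase DIO3 (0.48). In HOXA9 the same counts held, 3 higher and 1 lower of 5, and 4 higher of 4. Most of these rises depended on the scaling. After quantile normalization none of the 5 was higher and 2 were lower in Tet1, and 2 of the 4 were higher, with MAGEL2 at -0.04 and DIO3 at -0.10, and DLK1 at 0.70 and RTL1 at 0.28 were the 2 that passed. In shHMGA2 none of these 9 was called. Most of these genes have levels of 5.5 to 8, the range in which the median of all genes was above 0.5 in Tet1.

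The factors that make C/D box particles were mostly lower in Tet1 and HOXA9. Of 15 measured, 11 were lower and 1 higher in Tet1, and 9 were lower and 3 higher in HOXA9, beside 23.2% and 21.6% of all genes lower and 53.9% and 54.0% higher. DBR1, which opens intron lariats, was at -0.89 and -0.84. The core protein NOP58 was at -0.70 and -0.65, the nucleolar chaperone NOLC1 at -0.52 and -0.53, the exonuclease XRN2 at -0.42 and -0.28, and fibrillarin (FBL) at -0.18 and -0.13, of which the HOXA9 value was not called. The assembly factor ZNHIT3 was higher at 0.30 and 0.43, but at -0.17 and -0.03 with equal array medians. With equal medians 14 of the 15 were lower and none higher in Tet1.

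Most of the other nuclear small RNAs were higher in Tet1 and HOXA9 than in control as deposited, as were 53.9% and 54.0% of all genes. H/ACA genes were higher in 49 of 61 cases and lower in 6 in Tet1, with a median of 1.14, and in HOXA9 49 were higher and 4 lower, with a median of 1.02. All 16 SCARNA genes were higher in Tet1 (median 1.66) and in HOXA9 (median 1.46). MicroRNA genes were higher in 120 and lower in 31 of 189 in Tet1, with a median of 0.41. With equal array medians the medians in Tet1 were 0.68 for H/ACA genes, 1.19 for SCARNA genes and -0.06 for microRNA genes. The difference between these classes and the C/D box genes was not tested.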

How the data were processed

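The deposited table holds log2 values of 33297 probe sets in 12 columns, made by the authors with RMA; the submitters' processing notes name R 2.11. RMA corrects background, normalizes by quantiles and summarises probes. The sources used here do not state whether both array sets were normalized jointly. Replicate 3 of Tet1 and of HOXA9 equals the mean of replicates 1 and 2 in all probe sets within 1e-06. These 2 columns were left out, which left 10 independent arrays, and 2 arrays a group limit the precision.

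Symbols came from the platform annotation: 19460 probe sets have 1 symbol, 1754 several and 12083 none listed. For 769 genes with over 1 probe set the highest mean was used. limma 3.58.1 in R 4.3.3 (lmFit, eBayes; 6 residual and 5.65 prior degrees of freedom) gave two-sided tests, which were also run on simulated data. Gene lists, host assignments and members were chosen with earlier results of these data known, so lists are described and not tested. Named were, per comparison, up to 8 rises and 8 falls with groups that did not overlap, the extremes of each imprinted family, the rRNA processing members, and host or pathway genes. Chromosome starts and lengths are RefSeq's (GRCh38.p14). All 115 members matched it by gene ID. Alternatives were other scalings, a filter on dim genes, all 12 columns, 2 groups only, a mean-variance trend, another probe set rule, a replicate block and leaving out each array. One host gene is not reported here.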

Additional observations from a re-analysis of the deposited data

How the results depend on the processing

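As deposited, 12 SNORD genes were higher and 1 lower in shHMGA2, 0 and 0 in Tet1 against HOXA9, 43 and 42 in Tet1 against control, and 41 and 41 in HOXA9 against control. The lower count in shHMGA2 was 0 with only genes above the 30th percentile, which removes all imprinted genes, and 2 with only the 2 groups fitted, and leaving out arrays gave 0 to 2 lower and 7 to 16 higher, with 3623 to 4871 calls over all genes and a median gap (imprinted minus other) of -0.15 to -0.08. For Tet1 against HOXA9, calls over all genes were 80 as deposited, 145 after quantile normalization, 143 with only the 2 groups and 1112 with all 12 columns, of which 2 are averages, and 11 to 112 when arrays were left out, where 11, 18 and 17 followed from leaving out Tet1 replicate 1, Tet1 replicate 2 and HOXA9 replicate 2, each of which leaves 1 array in a group, assumed to vary like the others. SNORD genes lower were then 1 after quantile normalization and 3 with 12 columns, and 4 were higher with 12 columns. Without single arrays 0 to 1 were higher and 0 to 2 lower, and the gap was -0.20 to 0.10. The share of higher calls there was 26.2% as deposited, 37.9% after quantile normalization and 40.8% with 12 columns.

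Against control, equal array medians gave 28 SNORD genes higher and 71 lower in Tet1 and 25 and 73 in HOXA9, and the filter on dim genes left 15 and 13 lower. The gap was -0.57 in Tet1 and -0.19 after quantile normalization, and -0.53 and -0.05 in HOXA9. Leaving out arrays gave 39 to 44 higher, 32 to 44 lower, a gap of -0.63 to -0.52 and 12663 to 14389 calls in all for Tet1, and 39 to 42, 33 to 41, -0.67 to -0.43 and 12398 to 14105 for HOXA9. Signs turned under quantile normalization and under equal medians for 9 and 11 of the 85 called SNORD genes in Tet1, and for 7 and 8 of the 82 in HOXA9. Among the extremes and rRNA processing members these were as follows, with SNORD113-4, SNORD114-26, SNORD114-3 and, in HOXA9, SNORD13P1 not called as deposited. In Tet1, quantile normalization gave SNORD116-15 -0.05, SNORD13P1 0.01 and SNORD13P2 -0.25, and equal medians gave SNORD113-3 -0.10, SNORD113-4 -0.43, SNORD114-26 -0.39, SNORD115-44 -0.02, SNORD116-15 -0.16, SNORD13P2 -0.16 and SNORD14C -0.01. In HOXA9, quantile normalization gave SNORD114-3 -0.28 and SNORD13P2 -0.06, and equal medians gave SNORD113-3 -0.16, SNORD113-4 -0.45, SNORD114-3 -0.45, SNORD115-44 -0.16 and SNORD13P1 -0.42. The cause of these shifts was not tested.

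With a replicate block, 13 SNORD genes were higher and 1 lower in shHMGA2, 0 and 0 were called between Tet1 and HOXA9 (69 genes in all), and 41 and 40 in Tet1 and 40 and 39 in HOXA9 against control. Deviations from the group mean of same-numbered shHMGA2 and control arrays correlated at 0.16, 0.14 and 0.00, and of Tet1 and HOXA9 at 0.17, so the numbers were not taken as pairs.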

Other observations

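Probe sets that name a SNORD gene beside other genes give values for RNAs that could not be read alone. Over 37 distinct sets of symbols, 3 were higher and none lower in shHMGA2 than in control, 10 higher and 19 lower in Tet1, and 10 higher and 19 lower in HOXA9, with none called between Tet1 and HOXA9 (adjusted p over all probe sets, limma). Shares over all probe sets were not computed. Of the 18417 genes, 13.6% were higher and 12.6% lower in shHMGA2, 53.9% and 23.2% in Tet1, and 54.0% and 21.6% in HOXA9. Between Tet1 and HOXA9, 0.434% of genes were called. Some signs turned with the scaling: SNORD62A with SNORD62B was at 0.30 in Tet1 as deposited and at -0.26 after quantile normalization. The U3 RNA, which is needed for cleavage of the rRNA precursor and is read by 5 probe sets of identical values that name 5 SNORD3 genes, averaged 12.51 in Tet1 arrays and 11.49 in control arrays. The probe set of SNORD68 and its host RPL13 stood at 11.26 in Tet1 and 7.78 in control. That of SNORD1C and SNHG16 was 2.04 higher in Tet1, while SNORD1A from the same host was 1.13 lower on the log2 scale.

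In shHMGA2 the 3 that rose were SNORD62A with SNORD62B (6.90 against 6.30 in control), SNORD80 with GAS5 (9.12 against 8.57) and SNORD36A and SNORD36C with RPL7A (10.20 against 9.72). A probe set shared by SNORD116-2 and SNORD116-6 averaged 6.74 in Tet1 arrays and 5.86 in control arrays (adjusted p = 5.8e-05, limma), a difference of 0.88 that was 0.34 after quantile normalization. It lies above the 30th percentile in Tet1, unlike every imprinted gene with a probe set of its own, while SNORD116-6 alone was not called at 0.16. At the Prader-Willi locus SNORD64 with PWAR5 was at -0.32 and SNORD109A with SNORD109B at 0.27 in Tet1 (-0.19 with equal array medians). These were named after their values were seen.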
